A study of Mus musculus with 8 samples.

Results

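The 10 genes described here carry out the housekeeping work of astrocytes, the glial cells that surround synapses and blood vessels. They are Slc1a2, Slc1a3, Glul, Aqp4, Kcnj10, Gja1, Gjb6, Aldh1l1, Slc6a11 and Etnppl, and they were chosen by symbol from the 25834 genes counted in mouse hippocampus. All 10 were among the 16251 genes with enough counts to be tested. Hippocampal RNA was sequenced from 8 male mice, 4 controls and 4 SAP97-cKO animals, and each mouse gave 1 library. SAP97, encoded by Dlg1, is a scaffold protein of the synapse. SAP97-cKO mice were Nestin-cre+/-; SAP97fl/fl, and controls were littermates that were Nes-cre+/-, SAP97fl/fl or wild-type. The sources used here do not say which of these genotypes each control library had, nor how old the sequenced mice were. Nestin-cre is active in neural progenitors, which give rise to neurons and also to astrocytes and oligodendrocytes, so the deletion is not limited to 1 cell type. The astrocyte genes were therefore measured in tissue in which the astrocytes themselves may carry the deletion.

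Astrocytes clear glutamate from the synaptic cleft through the transporters of Slc1a2 and Slc1a3, convert it to glutamine with the enzyme of Glul, and take up GABA through the transporter of Slc6a11. Their endfeet on blood vessels are rich in the water channel of Aqp4 and the inward rectifier potassium channel of Kcnj10, which take part in water and potassium balance. Neighbouring astrocytes are joined into a network by gap junctions made of connexin 43 (Gja1) and connexin 30 (Gjb6). Aldh1l1 encodes a folate enzyme widely used as an astrocyte marker, and Etnppl a lyase that breaks down phosphoethanolamine.

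Of these genes, Gjb6 and Etnppl fell in the SAP97-cKO hippocampus, to 69.4% and 56.9% of the control mean. Both stood only just inside the threshold, a false discovery rate (FDR) of 0.25, with an adjusted p of 0.2496 each (edgeR's quasi-likelihood test, Benjamini-Hochberg over the 16251 genes). By edgeR 0 of the 10 rose at that threshold. limma-voom called Gjb6 alone, and DESeq2 called Gjb6 and Etnppl as lower and Aqp4 as higher. Over all 16251 genes limma-voom called 50, while DESeq2 called 1033, 588 of them lower and 445 higher. Aqp4 stood at 135% of the control mean with no overlap between the groups, but its adjusted p in the edgeR test was 0.316. The other 7 genes had log2 fold changes between -0.14 and 0.11. Over all genes tested, 0.283% passed by edgeR in the lower direction and 0.0123% in the higher, and 0.295% in either. At an unadjusted p under 0.05, 2 of the 10 were lower and 1 was higher, beside 7.01% and 4.73% of all genes tested, or 11.7% in either direction. In 2 genes every SAP97-cKO library lay below every control library and in 1 every one lay above, beside 3.47% and 2.78% of all genes tested, or 6.25% in either direction. The median log2 fold change was -0.02 over the 10 genes and -0.012 over all genes tested. In bulk tissue, fewer astrocytes and less RNA per astrocyte cannot be told apart.

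The sequences just upstream of the 2 genes that fell, and of Gja1, the connexin partner of Gjb6, are shown here so that the genes that moved can be set beside one that did not pass the test. They come from RefSeq for GRCm38.p6, cover the 250 bases before the annotated start and are written 5′ to 3′ on the strand of the gene, with each CpG in capitals.
Gjb6 (chr14:57133612-57133861, minus strand): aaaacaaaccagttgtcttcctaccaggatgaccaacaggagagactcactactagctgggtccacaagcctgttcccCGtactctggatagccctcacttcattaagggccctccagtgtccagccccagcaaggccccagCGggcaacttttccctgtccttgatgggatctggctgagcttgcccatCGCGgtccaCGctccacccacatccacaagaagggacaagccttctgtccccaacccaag
Etnppl (chr3:130617198-130617447, plus strand): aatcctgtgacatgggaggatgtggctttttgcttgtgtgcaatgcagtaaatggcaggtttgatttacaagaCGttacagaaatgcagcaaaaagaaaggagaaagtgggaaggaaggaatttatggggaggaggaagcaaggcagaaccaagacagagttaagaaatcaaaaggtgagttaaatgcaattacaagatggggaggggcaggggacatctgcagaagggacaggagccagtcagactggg
Gja1 (chr10:56377050-56377299, plus strand): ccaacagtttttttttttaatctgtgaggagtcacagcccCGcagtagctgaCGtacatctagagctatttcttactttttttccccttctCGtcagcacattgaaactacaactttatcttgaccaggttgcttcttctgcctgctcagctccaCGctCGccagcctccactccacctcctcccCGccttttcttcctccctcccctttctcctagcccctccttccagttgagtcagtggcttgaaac

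CpG dinucleotides were counted because promoters differ widely in them. The Gjb6 window held 5 and the Gja1 window 6, next to a median of 6 over 32817 such windows of the genome, while the Etnppl window held 1. A second annotated Etnppl start lies inside the gene span given below. Its window, chr3:130617325-130617574, overlaps the first Etnppl window and also had 1 CpG. Among the other windows the count ran from 1 in Slc1a2 and 2 in Slc1a3 to 25 in Slc6a11. The genes that fell thus did not share a CpG-rich or CpG-poor start. No window of Aqp4 was counted, nor searched for the motifs described next. The Slc1a2 (chr2:102706188-102706437) and Aldh1l1 (chr6:90550543-90550792) windows precede RefSeq starts that lie inside the gene spans given below. They are thus not the sequence before the outermost start of these genes. The windows were also searched on both strands for 3 short motifs. These were TTGGC, a half-site of the NFI factors that act in glial development, ACAANG, a core bound by SOX factors, and AGAACA, a half-site of the glucocorticoid receptor. The last letters of AGAACA are the first of ACAANG, so those matches can overlap. The 3 motifs occurred in 41.5%, 36.3% and 16.1% of all windows. None of the 3 was found in the Gjb6, Gja1 or first Etnppl window, and TTGGC was found at 1 place in the second Etnppl window, at 2 in that of Glul and at 1 each in those of Kcnj10 and Slc1a2. ACAANG was found at 1 place each in the windows of Slc6a11 and Slc1a3, and AGAACA at 1 place each in those of Kcnj10 and Slc1a3.

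Each library held close to the same number of counts, 37388177 to 37416649 in controls and 37391907 to 37426572 in SAP97-cKO, because the authors resampled the reads to a common depth. Dlg1 itself stood at 4339 ± 337 normalized counts (SD, n = 4) in the controls and at 2393 ± 470 in SAP97-cKO (log2 fold change -0.86, SE 0.12, adjusted p = 0.143, edgeR), with the groups apart. Normalized counts are counts scaled by edgeR's TMM factors. This Dlg1 count covers the whole gene and does not measure the loss of SAP97 protein. For a single exon of the gene the authors report a far larger reduction of reads. They also checked SAP97 by western blot in each animal. The libraries differed in how much neighbouring tissue they held: the summed level of 9 choroid plexus genes ran from 172 to 6783 CPM in controls and from 98.9 to 2336 CPM in SAP97-cKO, where CPM is the count scaled to a common library size. All 10 astrocyte genes were detected in every library, with a summed level of 6559 to 7555 CPM in controls and 6553 to 8205 CPM in SAP97-cKO, ranges that overlap.

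Levels of different genes can be set beside each other only per length. Counts were therefore also divided by the length of the annotated exons (RPKM, the CPM per kilobase of exon). That length joins the exons of all annotated transcripts of a gene, so comparisons between genes also depend on the annotation. In control hippocampi Glul was the highest at 533 ± 47.1 RPKM (SD, n = 4), followed by Slc1a2 at 249 ± 11.3 RPKM and Slc1a3 at 91.0 ± 15.7 RPKM. The gene of glutamine synthesis thus stood 2.14-fold above the main glutamate transporter, and Slc1a2 stood 2.73-fold above Slc1a3. Then came Kcnj10 at 46.7 ± 6.77, Aqp4 at 37.3 ± 4.81, Slc6a11 at 32.7 ± 4.75, Gja1 at 31.6 ± 4.68 and Gjb6 at 28.9 ± 3.47 RPKM. Neighbours within this group of 5 had overlapping libraries, so their order is within the spread between mice. Aldh1l1 at 11.9 ± 1.89 and Etnppl at 2.71 ± 0.688 RPKM closed the order, and neither overlapped with the gene above it. In SAP97-cKO the RPKM level was 50.4 ± 5.53 for Aqp4, 20.0 ± 2.76 for Gjb6 and 1.54 ± 0.188 for Etnppl.

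**Figure D1:**
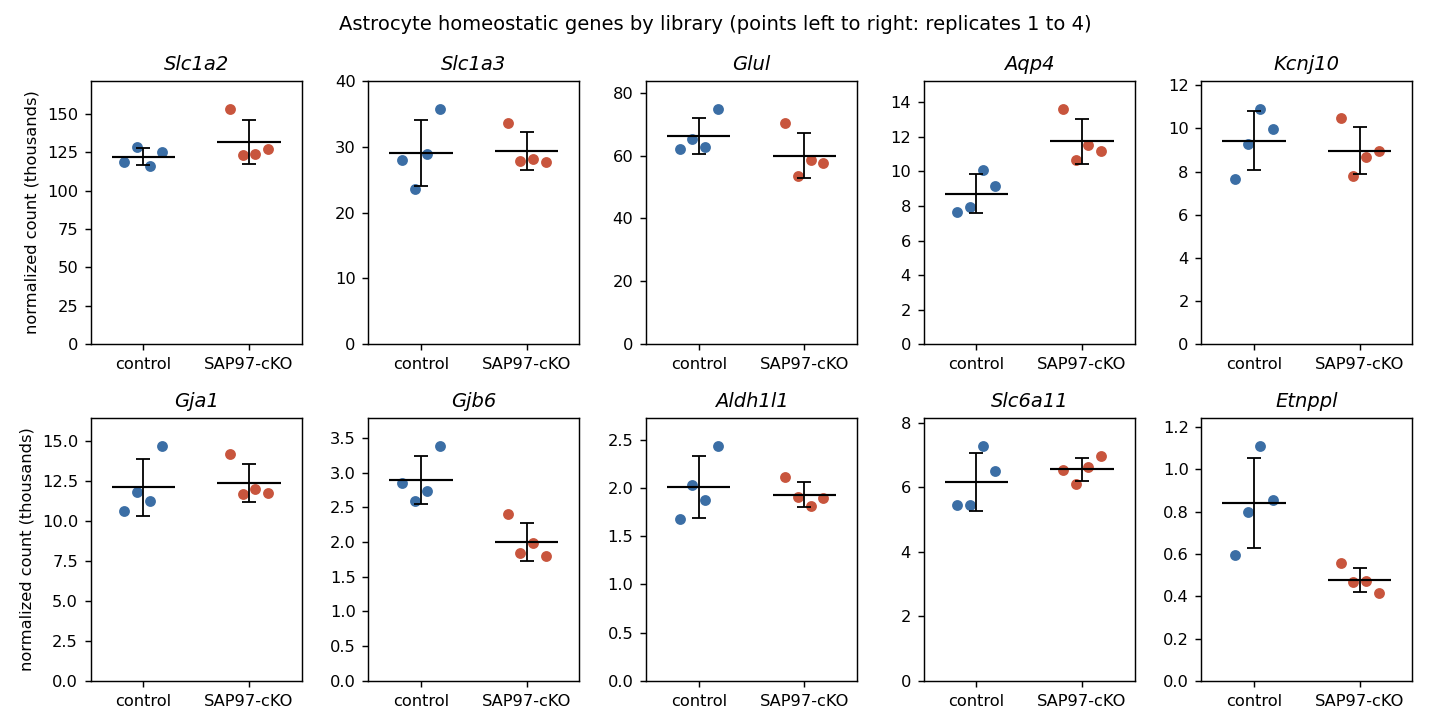
Normalized counts (in units of 1000, linear axes from 0) of the 10 astrocyte genes in 4 control and 4 SAP97-cKO hippocampi; points are libraries in replicate order, the long bar is the mean and the error bar the SD. Gjb6 and Etnppl have every SAP97-cKO library below every control library, Aqp4 has every one above, and in the other 7 genes the groups overlap.

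Among the glutamate genes, Slc1a2 (ENSMUSG00000005089, GLT-1, plus strand of chromosome 2, 102658659 to 102790784) had 118796, 128341, 116370 and 125106 normalized counts in control mice 1 to 4, and 153131, 123282, 123993 and 126950 in SAP97-cKO mice 1 to 4. The groups overlapped, and the SAP97-cKO group was spread mainly by its first library. The log2 fold change was 0.11 (SE 0.092, edgeR adjusted p = 0.632) with a 95% interval of -0.095 to 0.32. Slc1a3 (ENSMUSG00000005360, GLAST, minus strand of chromosome 15, 8634124 to 8710764) ranged from 23586 to 35726 in controls and from 27768 to 33636 in SAP97-cKO. Its SAP97-cKO range lay within the control range, and the log2 fold change was 0.016 (SE 0.12, edgeR adjusted p = 0.969, 95% interval -0.26 to 0.29).

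Glul (ENSMUSG00000026473, glutamine synthetase, plus strand of chromosome 1, 153899944 to 153909723) had 62081, 65289, 62766 and 74757 normalized counts in the controls and 70291, 53457, 58722 and 57525 in SAP97-cKO. Of the SAP97-cKO libraries, 3 lay below all the controls and the first lay above 3 of them. The log2 fold change was -0.14 (SE 0.10, edgeR adjusted p = 0.580) with a 95% interval of -0.37 to 0.085. For GABA uptake, Slc6a11 (ENSMUSG00000030307, GAT-3, plus strand of chromosome 6, 114131241 to 114249952) had a mean of 6171 ± 897 (SD, n = 4) normalized counts in controls and 6556 ± 363 in SAP97-cKO, with a log2 fold change of 0.087 (SE 0.10, edgeR adjusted p = 0.725, 95% interval -0.13 to 0.31). A change of the size seen in Gjb6 lies outside the intervals of all 4 of these transport and glutamine genes.

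The endfoot channels Aqp4 and Kcnj10 stood on opposite sides of 0. Aqp4 (ENSMUSG00000024411, aquaporin-4, minus strand of chromosome 18, 15389496 to 15410982) had 7636, 7961, 10072 and 9163 normalized counts in the controls and 13599, 10658, 11549 and 11170 in SAP97-cKO. Every SAP97-cKO library was above every control library, the nearest being SAP97-cKO mouse 2 and control mouse 3. The log2 fold change was 0.43 (SE 0.11, 95% interval 0.19 to 0.67), the unadjusted edgeR p was 0.00220 and the adjusted p 0.316, so Aqp4 did not pass. An exact two-sided permutation test over the 70 assignments of libraries to groups gave p = 0.0286, the smallest it can give with 4 against 4. Kcnj10 (ENSMUSG00000044708, Kir4.1, plus strand of chromosome 1, 172341210 to 172374085) had 7645, 9262, 10891 and 9953 normalized counts in the controls and 10464, 7810, 8657 and 8960 in SAP97-cKO. The groups overlapped throughout, and the log2 fold change was -0.073 (SE 0.12, edgeR adjusted p = 0.815, 95% interval -0.34 to 0.19).

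The connexins also differed from each other. Gja1 (ENSMUSG00000050953, connexin 43, plus strand of chromosome 10, 56377330 to 56402513) had 10661, 11842, 11245 and 14707 normalized counts in the controls and 14178, 11675, 12005 and 11748 in SAP97-cKO. All SAP97-cKO values lay within the control range, and the log2 fold change was 0.034 (SE 0.11, edgeR adjusted p = 0.915, 95% interval -0.21 to 0.28). Gjb6 (ENSMUSG00000040055, connexin 30, minus strand of chromosome 14, 57123303 to 57133611) had 2855, 2585, 2738 and 3384 normalized counts in the controls and 2401, 1836, 1985 and 1797 in SAP97-cKO. Each SAP97-cKO library was below the lowest control, and SAP97-cKO mouse 1 came closest to the controls. Gjb6 fell by 0.53 on the log2 scale (SE 0.11, 95% interval -0.77 to -0.28, edgeR adjusted p = 0.2496), from 2891 ± 347 to 2005 ± 276 normalized counts (SD, n = 4). The exact two-sided permutation p was 0.0286.

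Of the metabolic genes, Aldh1l1 (ENSMUSG00000030088, a formyltetrahydrofolate dehydrogenase, plus strand of chromosome 6, 90486427 to 90600203) had a mean of 2005 ± 320 (SD, n = 4) normalized counts in controls and 1929 ± 131 in SAP97-cKO, and its SAP97-cKO range of 1807 to 2116 lay within the control range of 1679 to 2434. Its log2 fold change was -0.056 (SE 0.11, edgeR adjusted p = 0.851, 95% interval -0.29 to 0.18). Etnppl (ENSMUSG00000019232, plus strand of chromosome 3, 130617448 to 130637521) had 594, 796, 1110 and 853 normalized counts in the controls and 555, 468, 472 and 414 in SAP97-cKO. The groups did not overlap, but the gap between SAP97-cKO mouse 1 and control mouse 1 was small next to the spread of the controls. Etnppl fell by 0.81 on the log2 scale (SE 0.17, 95% interval -1.19 to -0.43, edgeR adjusted p = 0.2496), from 839 ± 213 to 477 ± 58.1 normalized counts (SD, n = 4), and the exact two-sided permutation p was 0.0286. It was the least abundant of the 10 genes and the one with the largest fitted change.

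**Figure D2:**
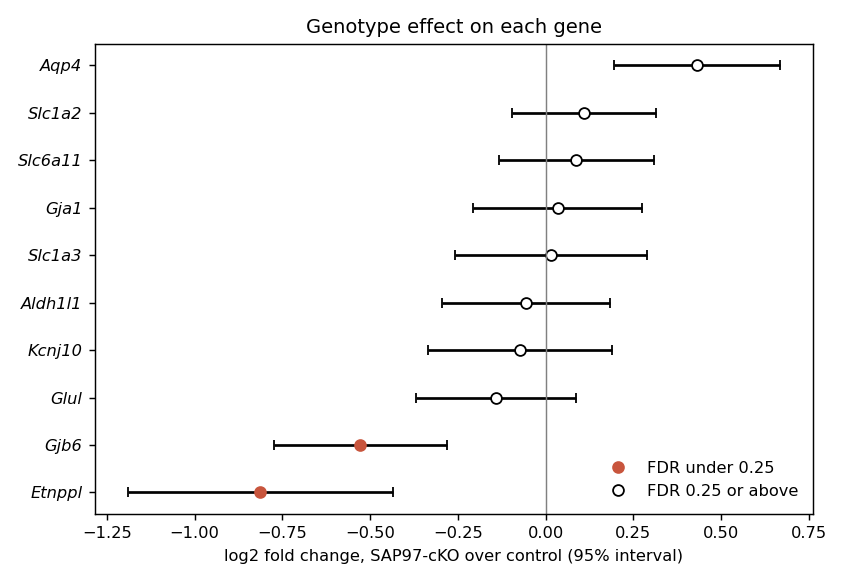
Log2 fold change of SAP97-cKO over control for each of the 10 genes (circle) with its 95% interval (bar), from edgeR; filled circles have an FDR under 0.25. Gjb6 at -0.53 and Etnppl at -0.81 lie below 0, Aqp4 at 0.43 lies above 0 with an open circle, and the intervals of the other 7 cross 0.

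Both calls rested on small margins. Leaving out 1 library at a time kept the direction of Gjb6, Etnppl and Aqp4 in all 8 fits, with log2 fold changes of -0.62 to -0.44, -0.95 to -0.64 and 0.36 to 0.52, but Gjb6 and Etnppl passed the FDR threshold only without control mouse 1 or without SAP97-cKO mouse 1. In those 2 fits Aqp4 passed too, and all 3 genes were called. Over all genes, 1675 of 16469 passed without control mouse 1 and 711 of 16474 without SAP97-cKO mouse 1. With all libraries it was 48 of 16251. Without control mouse 3 only Aqp4 passed, with an edgeR adjusted p of 0.239, and without control mouse 2, control mouse 4 or SAP97-cKO mouse 2, 3 or 4 none of the 10 did. With control mouse 2 or SAP97-cKO mouse 3 or 4 left out, 0 of all genes tested passed.

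Ratios of 2 genes within a library need no scaling between libraries, and 3 such pairs were compared by exact two-sided permutation tests, with Benjamini-Hochberg adjustment over the 3. The ratio of Gja1 to Gjb6 counts was 3.73, 4.58, 4.11 and 4.35 in the controls and 5.91, 6.36, 6.05 and 6.54 in SAP97-cKO. The balance of the connexin transcripts was thus 1.48-fold further towards Gja1 in SAP97-cKO, with a difference of 0.57 in mean log2 ratio and no overlap (exact permutation p = 0.0286, adjusted p = 0.0429). The ratio of Aqp4 to Kcnj10 counts was 0.999, 0.860, 0.925 and 0.921 in the controls and 1.30, 1.36, 1.33 and 1.25 in SAP97-cKO. Here the libraries of a group were tighter than for either gene alone, and the difference was 0.50 in mean log2 ratio, or 1.42-fold (exact permutation p = 0.0286, adjusted p = 0.0429). Gjb6 and Aqp4 each separated the groups alone, so these ratios rest in part on the same differences. Gjb6 is also in the paper's list of changed genes from these libraries. The astrocyte genes were chosen with earlier results known, so the ratio tests are not independent of those results. The p of 0.0286 is the smallest this test can give. Its adjustment covers 3 ratios, whereas the edgeR adjusted p of 0.2496 for Gjb6 and 0.316 for Aqp4 covers 16251 genes. The ratio of Slc1a2 to Slc1a3 counts was 4.25, 5.44, 4.02 and 3.50 in the controls and 4.55, 4.42, 4.40 and 4.57 in SAP97-cKO. These groups overlapped (difference 0.078, exact permutation p = 0.6, adjusted p = 0.6), and their means were 4.30 ± 0.821 and 4.49 ± 0.0892 (SD, n = 4). The difference for this pair was largest, 0.20 with an exact permutation p of 0.0286, without control mouse 2, and it was -0.014 without control mouse 4.

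**Figure D3:**
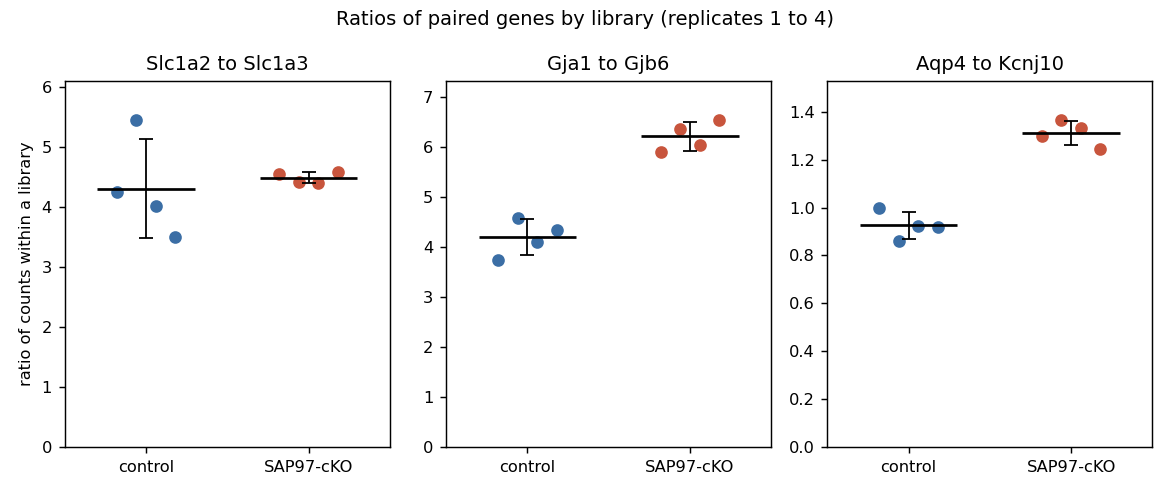
Ratio of counts of 2 genes within each library (linear axes from 0) in 4 control and 4 SAP97-cKO hippocampi; points are libraries in replicate order, the long bar is the mean and the error bar the SD. Gja1 to Gjb6 and Aqp4 to Kcnj10 are higher in every SAP97-cKO library, and Slc1a2 to Slc1a3 overlaps.

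Each gene was also set against the mean log2 level of the other 9 in the same library, as a description with no test. On this scale Aqp4 stood at -0.26 to -0.0014 in the controls and at 0.38 to 0.44 in SAP97-cKO, a difference of 0.58. Gjb6 stood at -2.09 to -1.75 and at -2.52 to -2.33, a difference of -0.49, and Etnppl at -4.27 to -3.54 and at -4.87 to -4.63, a difference of -0.78. The 3 genes kept their sides when measured against the rest of the astrocyte genes in place of the whole library. Most of the other genes moved little with genotype. The sides thus follow largely from the fold changes of the 3 genes and are no separate support. The mean of the other 9 includes the rest of these 3 genes, so the differences depend on each other. The fall of Gjb6 and Etnppl lowers the mean against which Aqp4 and Slc1a2 are set. Slc1a2 also separated, though barely, at 3.92 to 4.24 in the controls and 4.24 to 4.33 in SAP97-cKO, and the other 6 genes overlapped.

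Within a genotype the genes tended to go up and down together from mouse to mouse. Over the 45 pairs of genes, Pearson's r of log2 CPM across the 8 libraries had a median of 0.417 and was above 0 in 38 pairs, and after the mean of each genotype was subtracted the median was 0.597 with 44 pairs above 0. These values are a description over 8 libraries whose points share the scaling of each library. The closest pair within genotype was Gja1 and Aldh1l1 at 0.942. Aqp4 and Etnppl had r = -0.44 over all libraries but 0.87 within genotype, and Aqp4 and Gjb6 had -0.55 and 0.60, so mice with more Aqp4 than others of their genotype also had more of these genes, while the genotypes differed the other way. SAP97-cKO mouse 1 was the highest of its group for 9 of the 10 genes, all but Slc6a11. Control mouse 1 was the lowest of its group for 7 of them, and SAP97-cKO mouse 2 for 6.

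**Figure D4:**
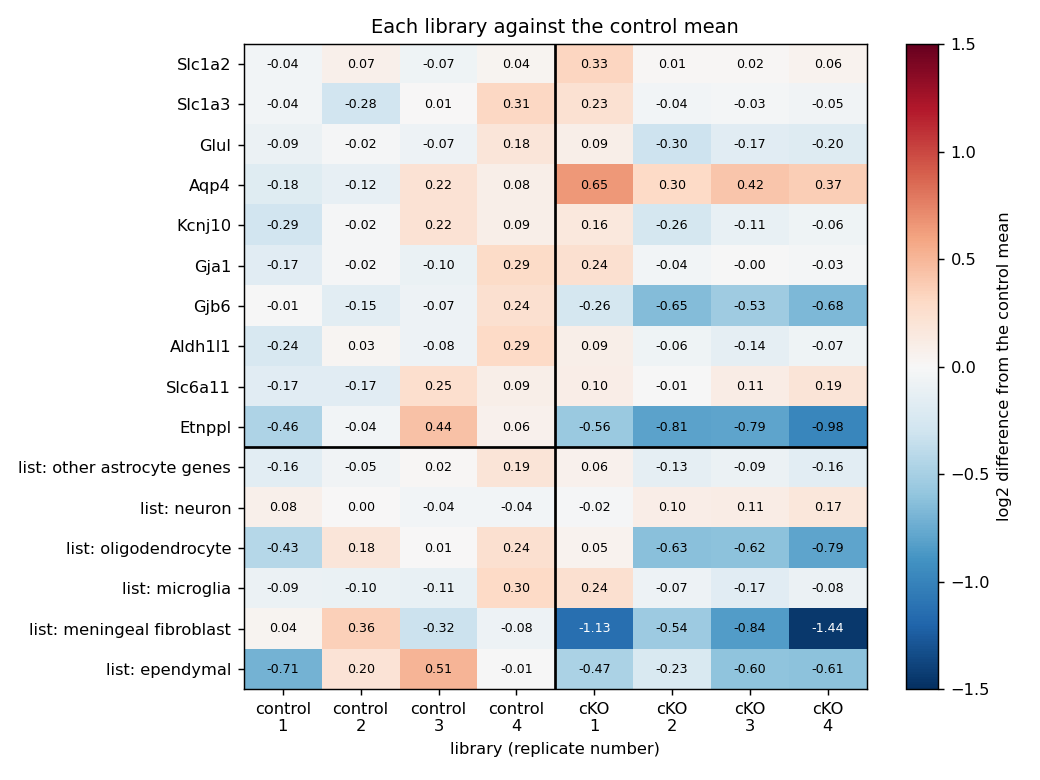
Log2 difference of each library from the control mean, for the 10 astrocyte genes (top) and the mean of 6 gene lists (bottom), with the value in each cell. Aqp4 is between 0.30 and 0.65 in SAP97-cKO, Gjb6 between -0.68 and -0.26 and Etnppl between -0.98 and -0.56, while SAP97-cKO mouse 1 is at 0.05 on the oligodendrocyte list and the other SAP97-cKO mice between -0.79 and -0.62.

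The genes whose pattern over the 8 libraries was most like the mean of the 10 astrocyte genes were Sfxn5 (r = 0.972), Abhd3 (0.969), Lgi4 (0.955), Lpcat3 (0.952), Mlc1 (0.946) and Cyp4v3 (0.944). Mlc1 encodes a membrane protein of astrocyte endfeet and Sfxn5 a mitochondrial carrier protein. For single genes, the pattern nearest to Gjb6 was that of Tsc22d3, a glucocorticoid-induced gene, with r = 0.981 over the 8 libraries, 0.946 within genotype and a log2 fold change of -0.61. The nearest to Etnppl was Anxa5, an annexin (r = 0.961, log2 fold change -0.45), and the nearest to Aqp4 was Paqr3 (r = 0.962). Those for the other 7 were Zfp783 for Slc1a2 (0.956), Zbtb2 for Slc1a3 (0.949), Elovl5 for Glul (0.980), Hcn2 for Kcnj10 (0.969), AW047730 for Gja1 (0.973), Ccni for Aldh1l1 (0.992) and Npas3 for Slc6a11 (0.922). All are the highest of many correlations over 8 libraries and are given as a description.

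The genome around the genes that moved was looked at after their values had been seen. Gjb2 (connexin 26), which is 18601 bp from Gjb6 on the same strand, had a mean of 437 ± 85.4 (SD, n = 4) normalized counts in controls and 241 ± 62.3 in SAP97-cKO, and its log2 fold change was -0.86 (SE 0.20, edgeR adjusted p = 0.293). Its groups did not overlap either, though it did not pass the threshold. Gja3 and Gm4491, the other genes tested within 100 kb of Gjb6, had log2 fold changes of 0.052 and -0.13, and the neighbours of Etnppl had 0.17 (Col25a1), -0.17 (Ostc) and -0.17 (Rpl34). Chst9, near Aqp4, had 0.064. Exons of other annotated genes overlap those of Slc1a2, Glul and Aldh1l1, and the sources used here do not say whether reads were counted by strand. The largest mean count among the overlapping genes found in the counts was 69.0, for Teddm2 opposite Glul.

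Genes that work with these 10 were counted in lists that were chosen with earlier results of these data known. Of the genes called in them, the paper also lists Slc6a13, Vim and Hspb1 as changed. The DESeq2 calls in the lists stand beside its 1033 calls among all 16251 genes tested. Of 24 other astrocyte genes, 0 passed the FDR threshold by edgeR. At an unadjusted p under 0.05, 3 were lower and 0 higher, and the median log2 fold change was -0.066. DESeq2 called 2 of them as lower, Dio2 and F3, and limma-voom 0. Dio2, which activates thyroid hormone, had a log2 fold change of -0.43 (SE 0.12, edgeR adjusted p = 0.319), F3 had -0.26 and the cystine transporter Slc7a11 had -0.24. The 24 summed to 5060 to 6381 CPM in controls and 5055 to 5889 CPM in SAP97-cKO. With their mean as a covariate, chosen after the data had been seen, Aqp4 had a log2 fold change of 0.50 (SE 0.083, edgeR adjusted p = 0.197), Gjb6 -0.45 (SE 0.079, adjusted p = 0.214) and Etnppl -0.71 (SE 0.16, adjusted p = 0.332).

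In the glutamate and GABA cycle, 2 of 21 genes fell and 0 rose at the FDR threshold, with a median log2 fold change of -0.049. They were Slc6a12 (log2 fold change -1.91, SE 0.39, edgeR adjusted p = 0.247) and Slc6a13 (-1.14, SE 0.24, adjusted p = 0.2496), GABA and betaine transporters that are also known from the meninges. At an unadjusted p under 0.05 the glutamine transporter Slc38a2 had -0.30, the neutral amino acid transporter Slc1a4 0.17 and the vesicular glutamate transporter Slc17a7, a neuronal gene, 0.24. limma-voom called only Slc6a13 and DESeq2 all 5 of these genes.

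Of 14 genes of the complex that anchors Aqp4 and Kcnj10 in the endfoot, 0 passed by edgeR or limma-voom and 1, Sgce, by DESeq2, and the median was -0.024. At an unadjusted p under 0.05 the sarcoglycan gene Sgce had -0.20, the laminin gene Lama1 -0.55 and Agrn, which encodes the matrix protein agrin, 0.28. The most abundant, dystrobrevin (Dtna), had -0.05. Of 12 other potassium and water genes 0 passed by edgeR or limma-voom and 1, Kcnk2, by DESeq2 (median -0.16), with Slc12a2, a chloride cotransporter abundant in choroid plexus, at -0.58 and the potassium channel gene Kcnk2 at 0.25. At an unadjusted p under 0.05, 2 of the anchoring genes were lower and 1 higher, and 1 of the potassium and water genes was lower and 1 higher.

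Of 11 other connexins and pannexins 0 passed by edgeR or limma-voom (median -0.12), with Gjb2 at -0.86 and the oligodendrocyte connexin Gjb1 at -0.56, both at an unadjusted p under 0.05, and the most abundant, Panx2, at 0.064. DESeq2 called both connexins as lower. Of 14 folate and ethanolamine genes tested 0 passed by any of the 3 tools and 1 was at an unadjusted p under 0.05 (median 0.05), Cept1, a phospholipid synthesis enzyme, at -0.21. The log2 fold change of the most abundant, the ethanolamine kinase Etnk1, was 0.11.

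Of 11 reactive astrocyte genes tested, 2 fell and 0 rose, with a median of -0.21. Vim (vimentin, an intermediate filament also made by fibroblasts and endothelial cells) fell by 0.69 (SE 0.11, edgeR adjusted p = 0.143), and Hspb1 (a small heat shock protein) fell by 1.09 (SE 0.20, adjusted p = 0.195). Gfap, the filament gene of astrocytes, had a log2 fold change of 0.29 (SE 0.12, edgeR adjusted p = 0.412) and Cp (ceruloplasmin) -0.56. DESeq2 called Cp as lower too.

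**Figure D5:**
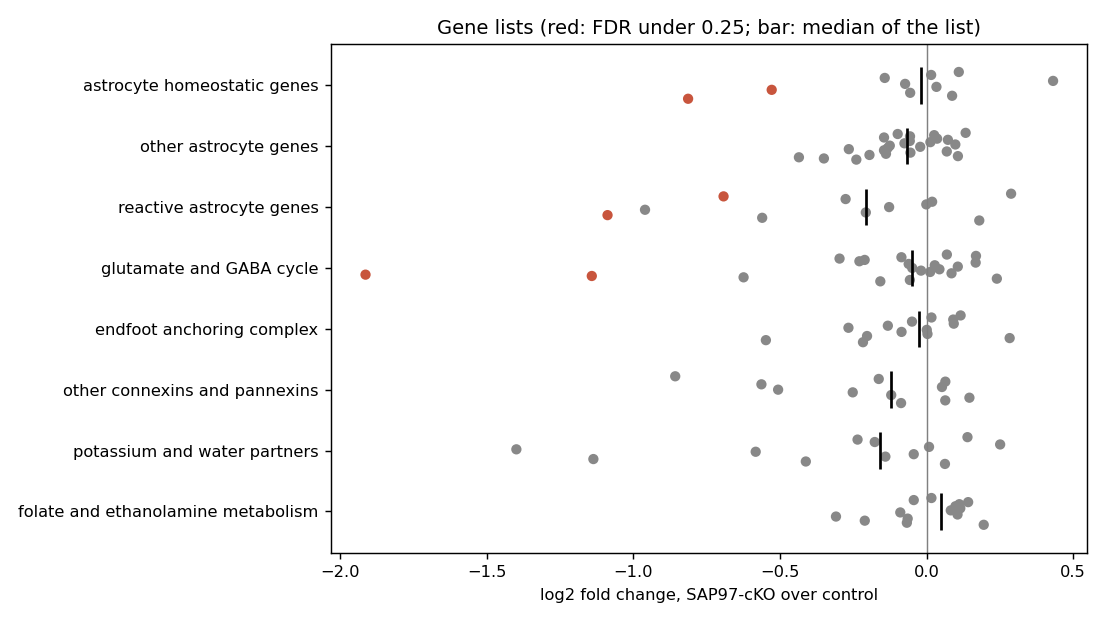
Log2 fold change of SAP97-cKO over control for each tested gene of 8 lists; red points have an FDR under 0.25 and the bar is the median of the list. Medians lie between -0.21 and 0.05, and the called points are Gjb6, Etnppl, Slc6a12, Slc6a13, Vim and Hspb1.

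Markers of other cells moved with genotype beside these results. Of 11 meningeal fibroblast markers, 5 fell and 0 rose by edgeR and by limma-voom (median -1.01), 9 were called lower by DESeq2 and 9 were lower at an unadjusted p under 0.05. In 7 of them the groups did not overlap, and their summed level was 262 to 482 CPM in controls and 159 to 262 CPM in SAP97-cKO. The 5 called by edgeR were Ogn (-1.32), Col1a2 (-1.01), Slc22a6 (-1.58), Col3a1 (-1.22) and Aldh1a2 (-1.25). All 5 are also in the paper's list of changed genes from these same libraries. The marker lists were written with earlier results known, so this count is not an independent finding. Of 8 oligodendrocyte markers 0 passed by edgeR or limma-voom and 3 by DESeq2, and 6 were lower at an unadjusted p under 0.05 (median -0.49), with a summed level of 5932 to 9506 CPM in controls and 4602 to 8329 CPM in SAP97-cKO. Of 9 choroid plexus markers 0 passed by any of the 3 tools and 0 were at an unadjusted p under 0.05 (median -1.48), and of 6 ependymal markers 0 passed by edgeR or limma-voom, 2 passed by DESeq2 and 4 were lower at an unadjusted p under 0.05 (median -0.53, 33.0 to 65.4 CPM in controls and 30.6 to 43.7 CPM in SAP97-cKO). Among the other marker lists the medians were 0.06 for 10 neuron markers (11265 to 12396 CPM in controls, 12374 to 13848 CPM in SAP97-cKO), 0.041 for 7 microglia markers, -0.17 for 7 endothelial markers, -0.055 for 5 oligodendrocyte precursor markers and 0.099 for 7 hippocampal neuron markers, with 0 genes past the threshold by edgeR or limma-voom in each. DESeq2 called 2 neuron, 1 precursor and 1 hippocampal neuron marker as higher, and 3, 1 and 1 were higher at an unadjusted p under 0.05 by edgeR. None of the markers was at 0 in every library.

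With the mean of the meningeal fibroblast markers as a covariate, the log2 fold changes were -0.65 (SE 0.23) for Gjb6, -1.05 (SE 0.33) for Etnppl and 0.14 (SE 0.19) for Aqp4, each with an edgeR adjusted p of 0.995. With the oligodendrocyte markers in its place they were -0.36, -0.54 and 0.60, and with the neuron markers -0.38, -0.45 and 0.62, none of them past the threshold. In these fits the values of Gjb6 and Etnppl were below 0 and those of Aqp4 above 0. The meningeal fibroblast mean was 3.60 to 4.28 log2 CPM in controls and 2.48 to 3.38 in SAP97-cKO, with no overlap. That fit can therefore hardly separate the covariate from genotype, and neither its signs nor its lack of calls can be read as the effect of adjustment. With the meningeal fibroblast covariate the value of Aqp4 was smaller than its SE. Of all genes tested, 0 passed in any of these fits. With the choroid plexus markers the values were -0.58 for Gjb6, -0.76 for Etnppl and 0.42 for Aqp4 (edgeR adjusted p = 0.264, 0.407 and 0.407). The part of these other cells in the results was not tested.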

How the data were processed

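Hippocampal RNA of 8 male mice, 4 per group, was sequenced. The authors used STAR 2.5.3a for alignment to the mouse genome (mm10, GRCm38.p5). Their PORT pipeline then took out ribosomal and mitochondrial reads, resampled the libraries to 1 depth and assigned reads to Ensembl genes. The deposited counts are whole numbers, with 37388177 to 37426572 per library, and were used as they stand. The resampling equalises depth, so a gene's counts depend on what the rest of the library holds. The deposited table also holds the log2 fold changes, p-values and q-values of the authors' own comparison, which were not used.

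Low counts were filtered with edgeR's filterByExpr, grouped by genotype, at a minimum count of 10 and a minimum total of 15, so that 16251 genes stayed and 9583 were removed. Libraries were scaled by TMM (factors 0.964 to 1.03) and the genotypes compared by edgeR's quasi-likelihood test (edgeR 4.0.16, R 4.3.3). P-values were adjusted by Benjamini-Hochberg over every gene tested, and the threshold was the study's FDR of 0.25. The SE is the log2 fold change divided by the square root of F, the 95% interval is from the t distribution with 10.29 degrees of freedom, and the biological coefficient of variation was 0.152. Single values and ratios were compared by exact two-sided permutation over 70 assignments, whose smallest p is 0.0286. No 2 libraries were alike within sampling noise (the chi-square divided by the number of genes was 7.3 to 52). The fitting script was tested on simulated data.

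The alternatives were limma-voom (limma 3.58.1), DESeq2 1.42.0, other scalings and filters, a replicate block, marker covariates, an FDR of 0.05 and leaving out each library. The replicate numbers were checked for pairing by correlating the deviations of same-numbered libraries, as given in the closing section. The lists were other astrocyte genes, the glutamate and GABA cycle, the endfoot anchoring complex, other connexins and pannexins, potassium and water partners, folate and ethanolamine metabolism, reactive astrocyte genes and the markers of 9 other cell types. Of the folate and ethanolamine list 14 of 16 genes were tested, and of the reactive list 11 of 13. The members and lists were chosen with earlier results of these data known. Genes named were Dlg1, the 10 members, in each list those past the threshold, those at an unadjusted p under 0.05 (at most 4) and the most abundant, and the genes with the highest Pearson r with the members. For the marker lists only the genes past the threshold were named. Some genes that this rule names are not reported here. Coordinates, exon lengths and neighbours are from GENCODE M21 (GRCm38), where 25696 of 25834 identifiers matched, and windows upstream of annotated starts from RefSeq (GRCm38.p6). Plots were drawn with matplotlib 3.10.9.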

Additional observations from a re-analysis of the deposited data

Results flagged for a closer look

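In the SAP97-cKO group, 1 library stood far above the other 3 for 3 of the genes, each time that of SAP97-cKO mouse 1. The gap to the next library was 0.877 of the group's range for Slc1a2, 0.932 for Slc1a3 and 0.868 for Gja1. These were the 3 flags among 28 groups of 4 libraries tested, where chance alone is set to flag about 5% of groups. The same mouse was the highest of its group for 9 of the 10 astrocyte genes. Without it the log2 fold changes were -0.05 for Slc1a3 and -0.03 for Gja1, with the sign turned, and Gjb6, Etnppl and Aqp4 passed the FDR threshold by edgeR. In that fit 711 of the 16474 genes tested passed.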

How the results depend on the processing

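Gjb6, Etnppl and Aqp4 kept their direction in all 20 refits, but few calls held: Gjb6 passed the FDR threshold in 2 of the 8 fits without 1 library and 6 of the 12 other fits, Etnppl in 2 and 4, and Aqp4 in 3 and 3. The number of the 10 genes called (2 in the fit reported) was 1 with limma-voom, and 0 with DESeq2 size factors in edgeR, with at least 10 counts in every library, with the meningeal fibroblast, choroid plexus, neuron or oligodendrocyte markers as a covariate and at an FDR of 0.05, and 0 to 3 without 1 library. The number of all genes called (48, 46 of them lower) was 1033 with DESeq2 (588 lower, 445 higher), 95 without scaling, 104 without a filter, 16 with the choroid plexus covariate and 0 with the other 3 covariates or at an FDR of 0.05. With 1 library left out it was 0 to 1675, the highest without control mouse 1, then 711 without SAP97-cKO mouse 1, and 0 without control mouse 2 or SAP97-cKO mouse 3 or 4. With 0 called by edgeR, 699, 635 and 668 genes were at an unadjusted p under 0.05 with the meningeal fibroblast, neuron and oligodendrocyte covariates.

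The median log2 fold change of the 10 genes (-0.02) was -0.24 with the meningeal fibroblast, 0.15 with the neuron and 0.15 with the oligodendrocyte covariate, and -0.077 to 0.084 without 1 library. Several genes that were not called changed sign. Without scaling, Slc1a3 was at -0.032 and Gja1 at -0.013, while the median of all genes moved from -0.012 to -0.058. With the meningeal fibroblast covariate Slc1a3 was at -0.22, Gja1 at -0.036 and Slc6a11 at -0.26, and with the choroid plexus covariate Slc1a3 was at -0.062 and Gja1 at -0.019. Kcnj10 was at 0.14 and Aldh1l1 at 0.091 with the neuron covariate, Glul at 0.031, Kcnj10 at 0.14 and Aldh1l1 at 0.15 with the oligodendrocyte covariate, and Kcnj10 at 0.0071 and Aldh1l1 at 0.039 with the other astrocyte genes, an alternative chosen after seeing the data. Without 1 library Slc1a3 ran from -0.072 to 0.13, Gja1 from -0.031 to 0.14, Kcnj10 from -0.16 to 0.016 and Aldh1l1 from -0.13 to 0.052. The meningeal fibroblast mean did not overlap between the genotypes, so its fit can hardly tell the covariate from genotype. The causes were not tested.

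Without 1 library the log2 ratio difference was 0.52 to 0.61 for Gja1 to Gjb6, 0.47 to 0.54 for Aqp4 to Kcnj10 and -0.014 to 0.20 for Slc1a2 to Slc1a3. Same-numbered libraries had correlations of -0.0596, 0.197, 0.0933 and 0.258 in their deviations, and libraries 2, 3 and 4 of each genotype correlated best with their own number while control 1 and SAP97-cKO 1 did not. As not every correlation was above 0.1, the libraries were taken to share only a number. The mean log2 CPM of the choroid plexus markers was 4.09, 6.49, 5.65 and 2.33 in controls 1 to 4 and 3.19, 4.99, 4.12 and 1.38 in SAP97-cKO 1 to 4, the same order in both and lower in SAP97-cKO at each number. With the replicate block 2 of the 10 genes and 256 of all genes passed, and the ratio differences for Gja1 to Gjb6 (0.57) and Aqp4 to Kcnj10 (0.50) had exact sign-flip p = 0.125, the smallest that 4 pairs allow. With 4 mice per group, the printed intervals give the precision of each gene.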
